A study of Caenorhabditis elegans with 2 samples.

Results

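A set of 1114 ranked ChIP-seq peaks, of 99784 in the series-level ranked list, had its summit in the promoter window of a chemoreceptor gene of Caenorhabditis elegans. The window ran from 1000 bp upstream to 200 bp downstream of the annotated 5′ end of a protein-coding gene named in one of 23 groups (sra, srab, srb, srbc, srd, sre, srg, srh, sri, srj, srm, srn, srr, srsx, srt, sru, srv, srw, srx, srxa, srz and str genes, and odr-10). The annotation holds 1310 such genes, and 731 of them had at least 1 site. The peaks came from chromatin immunoprecipitation of whole young adults of strain OP765, with 1 group and 2 biological replicates. OP765 carries the transgene wgIs765, a fosmid copy of aptf-3 tagged with TY1, EGFP and 3xFLAG, with unc-119(+) as its rescue marker, in an unc-119(tm4063) background that both replicates share. Worms were starved as L1 larvae after bleaching to bring them into step and harvested at 64 h. Their chromatin was sheared by sonication into fragments of 200 to 800 bp and enriched through the GFP tag with an anti-GFP antibody. The labels do not say whether the endogenous aptf-3 gene is intact, and no control animals are among the samples.

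Chemoreceptor genes encode G protein-coupled receptors that nematodes use to detect odorants, tastants and pheromones. Most are expressed in a small number of ciliated sensory neurons of the head and tail, and many lie in tandem clusters of close relatives on the arms of the autosomes, above all on chromosome V. APTF-3 is a worm protein of the AP-2 transcription factor family. In vertebrates, AP-2 proteins bind palindromes of the form GCCNNNGGC as dimers. In whole animals, strong occupancy in a few sensory neurons and weak occupancy in many cells cannot be told apart, so a site of low signal is only a site of low signal in the whole-animal average.

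Of the 1114 sites, 4 were in the thresholded list of the series (the main list), which holds the peaks that passed the authors' limit on the irreproducible discovery rate (IDR), a measure of how repeatable a peak is between inputs. This was 0.359% of the sites, with an exact 95% binomial interval of 0.0979 to 0.917%, beside 0.787% of all ranked peaks and 1.25% of the 20239 ranked sites at other protein-coding promoters only. In the window of 2000 bp upstream to 500 bp downstream, 9 of 2379 sites were in the main list, beside 1.05% of other coding promoter sites. In that of 500 bp to 100 bp, 1 of 515 sites was, beside 1.61%. At an IDR of 0.05 or less there were 12 sites (1.08%), beside 2.89% of all ranked peaks and 3.62% of the sites at other coding promoters. No test of a condition was possible with 1 group, and intervals on shares cover counting error over sites or genes only. Neighbouring sites and genes are not independent replicates.

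The 4 main-list sites lay upstream of sre-23 (WBGene00013957), srh-269 (WBGene00005475) and srbc-38 (WBGene00021707) and inside srh-178 (WBGene00005393). The sequences around 3 of them are shown because they passed the authors' threshold and because each overlaps a different annotated feature; the sre-23 site is described without its sequence. Each is 201 bases of the ce11 (WBcel235) genome as RefSeq gives it, forward strand, centred on the summit. For srh-269 the span is chrV:16592247-16592447, and capitals mark bases of an annotated tRNA gene. For srbc-38 it is chrV:706540-706740, and capitals mark bases that the reference marks as repeats. For srh-178 it is chrV:18480040-18480240, and capitals mark coding exon, which fills the window.
srh-269: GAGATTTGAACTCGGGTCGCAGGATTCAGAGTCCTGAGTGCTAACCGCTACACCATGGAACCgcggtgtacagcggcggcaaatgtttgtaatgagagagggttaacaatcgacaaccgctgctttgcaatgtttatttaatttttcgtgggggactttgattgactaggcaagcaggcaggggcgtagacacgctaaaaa
srbc-38: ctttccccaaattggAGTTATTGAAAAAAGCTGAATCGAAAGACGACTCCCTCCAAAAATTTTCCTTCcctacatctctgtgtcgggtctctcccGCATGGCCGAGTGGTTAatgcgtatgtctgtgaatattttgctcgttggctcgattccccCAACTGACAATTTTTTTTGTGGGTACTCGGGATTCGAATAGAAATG
srh-178: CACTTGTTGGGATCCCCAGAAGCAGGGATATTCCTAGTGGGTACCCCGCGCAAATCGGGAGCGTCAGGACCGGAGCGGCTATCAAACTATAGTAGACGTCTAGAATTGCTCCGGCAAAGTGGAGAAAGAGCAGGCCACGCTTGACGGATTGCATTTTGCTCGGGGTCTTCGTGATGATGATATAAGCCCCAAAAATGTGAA

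The site upstream of sre-23, a gene of the sre receptor family, had the highest signal of all 1114. It spans 8259464 to 8259759 on chromosome I, with its summit in intergenic sequence 673 bp upstream of the gene. Its signal, the authors' peak value in column 7 on a scale the sources do not define, was 149 in the series-level ranked list. Replicate 2 had a peak of signal 78.3 with its summit 1 bp away, and replicate 1 had a peak of 78.3 with its summit 103 bp away. Both of these were in the replicates' own thresholded lists, and sre-23 was the only chemoreceptor gene with a site in either of those lists. This was 1 of 1007 receptor sites in replicate 1 and 1 of 683 in replicate 2, beside 0.385% and 0.551% of other coding promoter sites. The global IDR of the site was 0.000179. A snoRNA gene, ZK265.10, ended 114 bp from the summit of the series-level peak and 11 bp from that of the replicate 1 peak. Its part in the signal was not tested.

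The site upstream of srh-269 had a signal of 90.7, with 57.7 in replicate 1 and 42.9 in replicate 2. Its summit lay 305 bp upstream of the gene, and the tRNA gene shown in capitals above fills 62 of the 201 bases around it. The srh-269 and sre-23 sites were also the only 2 chemoreceptor sites in the conservative thresholded list of 675 peaks. The conservative ranked list held 1092 receptor sites, and 1.16% of its other coding promoter sites were thresholded. The srbc-38 site had a signal of 70.1, with 38.8 in replicate 1 and 29.4 in replicate 2, and lay 578 bp upstream of the gene. Of the 31-base words in its window, 66.7% occur more than once in the genome, so reads there can map to other copies. The srh-178 site had a signal of 58.2, with 24.9 in replicate 1 and 34.5 in replicate 2, and lay 191 bp downstream of the 5′ end. All 4 sites had an IDR of 0.01 or less, and no other chemoreceptor site did.

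The site upstream of sre-1 was the fourth by signal but was not in the main list. Its signal was 66.8, with 31.9 in replicate 1 and 31.6 in replicate 2, and its IDR was 0.0246. The summit lay 987 bp upstream of sre-1 and 7 bp from the 5′ end of another protein-coding gene, B0495.9, so the site belongs to both promoter windows. In the sequence around it, chrII:7708617-7708817, capitals mark the annotated B0495.9 gene.
sre-1: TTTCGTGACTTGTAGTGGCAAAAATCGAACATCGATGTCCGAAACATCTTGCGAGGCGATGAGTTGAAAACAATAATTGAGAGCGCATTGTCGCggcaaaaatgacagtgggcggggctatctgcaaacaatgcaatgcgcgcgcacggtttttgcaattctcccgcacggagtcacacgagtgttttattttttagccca

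The other sites among the 15 of highest signal had signals between 52.6 and 58.0. They lay near srx-96, srw-41, sre-29, srh-69, str-255, srg-34, sra-25, sre-33, sri-30 and str-94, and none was in a thresholded list. All of these 10 had a summit within 100 bp in both replicates, with signals of 19.9 (sri-30) to 36.5 (str-94) in replicate 1 and of 18.7 (str-94) to 35.9 (sra-25) in replicate 2. The str-94 site was shared with the promoter window of ptd-2, a gene of the patched-related family. The summits near srx-96, sre-33, srh-69 and sri-30 lay inside another coding gene (T01D3.3, sre-35, srh-61 and sri-29 in turn). That near sre-29 lay inside a pseudogene. Of the 15 strongest sites, 10 were intergenic, a class that also takes in introns of noncoding genes and pseudogenes, as at sre-29. A summit more than 500 bp upstream of the gene was found at 12. Their mean GC content was 46.3%, beside 38.2% ± 6.21 (SD) over all 1114 sites.

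**Figure D1:**
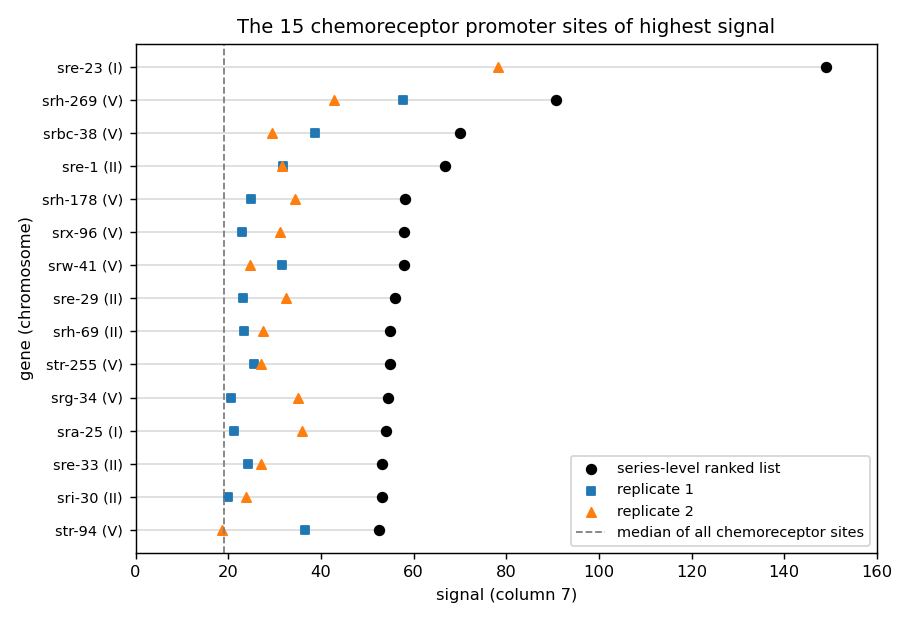
Signal (column 7) of the 15 chemoreceptor promoter sites of highest signal in the series-level ranked list and, where a summit lay within 100 bp, in each replicate. The site of sre-23 stands at 149, the next at 90.7, and from the fifth to the fifteenth place values run from 58.2 to 52.6; the replicate 1 peak at sre-23, 103 bp away, is not drawn.

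Over all 1114 sites the median signal was 19.0, with an interquartile range of 12 to 28.3. It was 21.8 (13.2 to 31.7) over the sites at other coding promoters and 21.7 over all ranked peaks. The 95% interval of the median was 18.0 to 20 for chemoreceptor sites and 21.6 to 22 for the others. The quartiles of the whole ranked list were 13.3, 21.7 and 31.3. Of the chemoreceptor sites 30% lay under the lowest and 19.4% above the highest of these, beside 25.2% and 25.8% of the other coding promoter sites. Without the 4 main-list sites the median was 18.9.

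Other gene groups with restricted or signal-dependent expression were placed beside the receptors. The 299 sites at nuclear hormone receptor (nhr) promoters, genes of ligand-regulated transcription factors that are also numerous on chromosome V, had a median signal of 19.9 (95% interval 18.1 to 21.9), and none was in the main list. The 171 sites at neuropeptide promoters (flp, nlp and ins genes) had a median of 22.5 (19.3 to 24.5), with 1 in the main list. The interval for nhr sites overlapped that of the chemoreceptor sites, and the interval for neuropeptide sites did so only in its lower part.

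A smaller share of chemoreceptor genes than of other coding genes had a site. The share was 55.8% (731 of 1310, exact 95% interval 53.1 to 58.5%), beside 70.8% of the 18663 other coding genes and 69.8% of all coding genes. For main-list sites the shares were 4 of 1310 chemoreceptor genes and 1.49% of all coding genes. The share was 64.7% of nhr genes and 69.3% of neuropeptide genes. The difference was present in each replicate's own ranked list. In replicate 1, 55.3% of chemoreceptor genes and 66.8% of other genes had a site, and in replicate 2, 41.1% and 59.1% did. Replicate 2 has fewer ranked peaks (72073, beside 85218 in replicate 1), and the gap between the gene groups was wider there than in replicate 1.

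The replicates also differed in how many of the series-level sites they held. Of the 1114 sites, 665 (59.7%) had a replicate 1 summit within 100 bp, close to the 60.7% of other coding promoter sites. In replicate 2 there were 499 (44.8%), beside 53.7%. A summit in both replicates was found for 289 sites (25.9%, interval 23.4 to 28.6%), beside 32.8% of the others, and 239 sites (21.5%) had none in either. Within 50 bp the shares matched in both were 15.8% and 20.5%, and within 200 bp they were 37% and 45%. The median signal in the ranked list was 31.0 for the sites matched in both, 17.6 for the 586 matched in 1 replicate and 12 for those matched in neither. At other coding promoter sites these medians were 33.1, 19.5 and 11.5. At the 289 receptor sites matched in both, replicate 1 had the higher value at 129 and replicate 2 at 160. Across these sites the Spearman correlation of the replicates' signals was 0.28, beside 0.32 across the 6639 other coding promoter sites matched in both. At the matched receptor sites the series-level signal was close to the sum of both replicates (median ratio 1.01, interquartile range 0.925 to 1.06). Read numbers are unknown here, and the part that depth has in these shares was not tested.

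**Figure D2:**
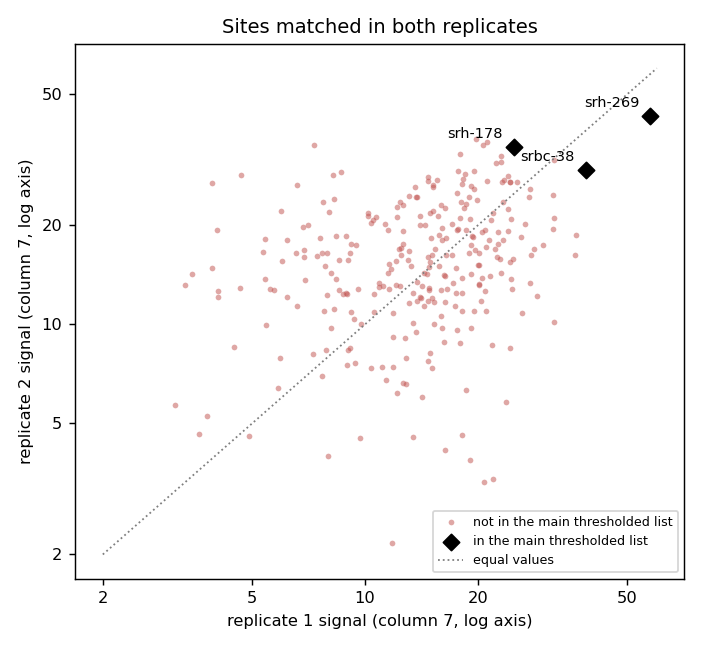
Replicate 2 signal against replicate 1 signal (column 7, log axes) at the 289 chemoreceptor promoter sites with a summit within 100 bp in both replicates. The main-list sites of srh-269 and srbc-38 lie at the upper right, srh-178 lies above the line of equal values, and the other points scatter widely about it (Spearman correlation 0.28).

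By superfamily, 62.9% of the 588 Str genes (srd, srh, sri, srj, srm, srn, str and odr-10), 58.1% of the 289 genes of the solo families (srbc, srr, srsx, srw, srz), 44.7% of the 309 Srg genes (srg, srt, sru, srv, srx, srxa) and 44.4% of the 124 Sra genes (sra, srab, srb, sre) had a site. The exact interval of the Str genes (58.9 to 66.8%) lay above those of the Srg genes (39.0 to 50.4%) and the Sra genes (35.4 to 53.5%), while that of the solo families (52.2 to 63.9%) overlapped the Sra interval. The median signals were 21.3 for Sra sites (18.3 to 24.7), 19.3 for Srg (17.4 to 21.8), 18.8 for solo (17.4 to 20.4) and 18.5 for Str (16.8 to 20.2), and their intervals all overlapped.

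Single families differed more in the share of genes with a site than in signal. The highest share among families of 10 or more genes was 78.7% of 61 sri genes (interval 66.3 to 88.1%), followed by 67.0% of 109 srw genes and 66.8% of 220 srh genes. The lowest were 16.7% of 30 srv genes (5.64 to 34.7%), 16.7% of 12 srb genes and 28.2% of 39 sru genes. The order of shares followed the base composition of the promoter windows at its ends, with a mean GC content of 36.3% for sri and of 31.0 to 31.8% for srb, sru and srv. Of the srv genes 20 lie on chromosome IV, as do 19 of the sru genes, but so do 27 of the 63 srz genes, of which 61.9% had a site, and only 1 of the srb genes.

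Of the 17 families with 10 or more sites, 15 had a median signal below that of other coding promoters (21.8), and the medians ran from 13.8 (sru, 17 sites) to 25 (sre, 44 sites). The sre interval was 19.6 to 30.9 and included the median of other promoters, while the str interval, 13.6 to 19.9 around a median of 16.3 in 175 sites, lay below it. The interval of the largest family, srh, reached up to it (17.1 to 21.8 around 19.6, 238 sites). The sre sites had a mean GC content of 40.6% on chromosome II. There the 31 sre sites had a median of 22.7 and the 144 other receptor sites 22.1, while on V the 8 sre sites had a median of 30.9 (18.3 to 41.0) and the 802 others 18.0. At a GC content of 45% or more, the 14 sre sites had a median of 38.2 and the 144 other receptor sites 28.9.

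**Figure D3:**
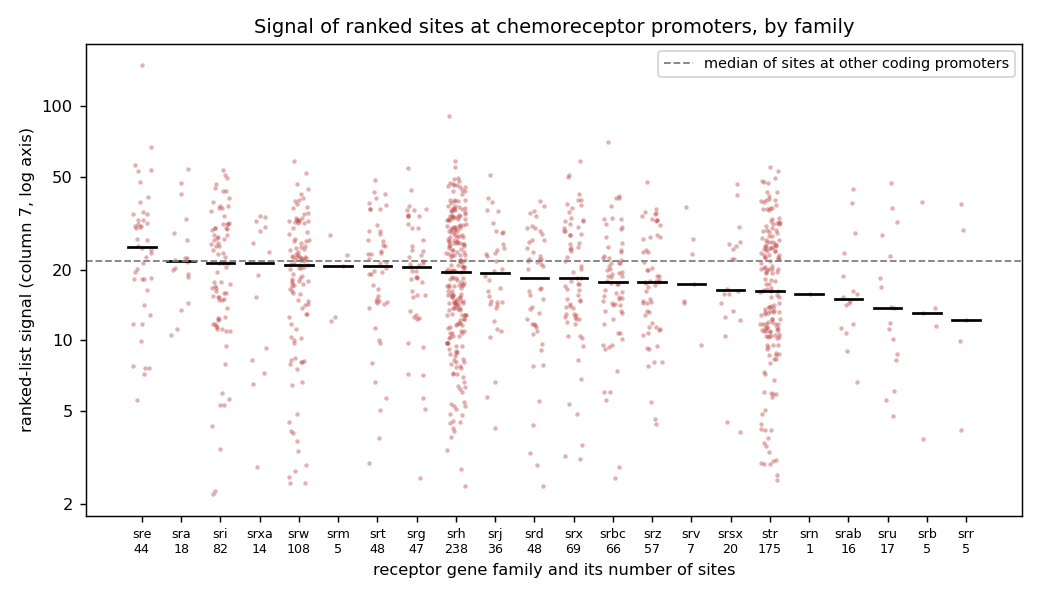
Signal (column 7, log axis) of every site by receptor gene family, ordered by median, with the number of sites under each name. Black bars are family medians and the dashed line is the median of sites at other coding promoters (21.8); a site in the windows of 2 families is drawn in both.

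The strongest site of each family was 149 for sre-23 in sre, 90.7 for srh-269 in srh, 70.1 for srbc-38 in srbc, 58.0 for both srx-96 in srx and srw-41 in srw, 54.9 for str-255 in str, 54.5 for srg-34 in srg, 54.1 for sra-25 in sra and 53.1 for sri-30 in sri. These were followed by srj-11 (50.9), srt-29 (48.2), srz-97 (47.2), sru-20 (47.1), srsx-30 (46.3) and srab-3 (44.1). The lowest were srd-9 (39.2), srb-15 (38.9), srr-1 (38.3), srv-3 (37.1), srxa-15 (34.0), srm-6 (28.3) and srn-1 (15.8). A family with more sites has more chances of a high value, so these values describe single sites and do not order the families.

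Chromosome V held 890 of the 1310 genes (67.9%) and 810 of the 1114 sites (72.7%, interval 70.0 to 75.3%). Chromosome II held 12.9% of the genes and 15.7% of the sites, and chromosome IV 11.6% of the genes but 5.48% of the sites. On II, 66.3% of 169 receptor genes had a site, on V 59.2% of 890, and on IV 28.9% of 152 (interval 21.9 to 36.8%). Other coding genes reached 76.8%, 70.4% and 62.3% on the same chromosomes. The low share on IV was present in both replicates, with 30.3% and 24.3% of receptor genes beside 60.2% and 53.4% of other genes. Of the groups set beside the receptors, 31.6% of 19 neuropeptide genes (interval 12.6 to 56.6%) and 48.5% of 33 nhr genes (30.8 to 66.5%) on IV had a site. Chromosomes I, III and X hold 31 to 34 receptor genes each, with shares of 70.6% (52.5 to 84.9%), 38.7% (21.8 to 57.8%) and 35.3% (19.7 to 53.5%). Other coding genes reached 75.6%, 77.2% and 62.8% there, above the wide receptor intervals on III and X and inside that on I.

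On chromosome IV, piRNA genes, which encode small RNAs of the germ line, lie in dense clusters between coding genes. Of the 71 receptor genes with a piRNA gene in the promoter window, 14.1% had a site, and of the 81 without, 42.0%. Other coding genes on IV showed the same order, 26.7% of 525 and 69.5% of 2604. The receptor windows with a piRNA gene had a mean GC content of 30.7% and those without 33.2%. Their parts in the difference were not separated.

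The median signal of receptor sites was 22.1 on II and 18.2 on V, with intervals of 20.6 to 24.3 and 17.1 to 19.5 that did not overlap. On II it was 1.03 times the median of other coding promoter sites of the same chromosome, and on V it was 0.848 times. With V cut into stretches of equal length, the receptor sites at its left had a median of 19.2, those in the middle 15.6 and those at its right 17.9, beside 22.1, 21.2 and 20.9 for the other coding promoter sites. The share of receptor genes with a site on V was 59.5% at the left, 39.4% in the middle and 71.4% at the right, and that of other genes was 74.6%, 65.3% and 72.7%. The right was the stretch of V where receptor genes came closest to the others in that share. The share of sites matched in replicate 2 was 53.7% on II and 41.6% on V, while in replicate 1 it was 63.4% and 59.9%.

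**Figure D4:**
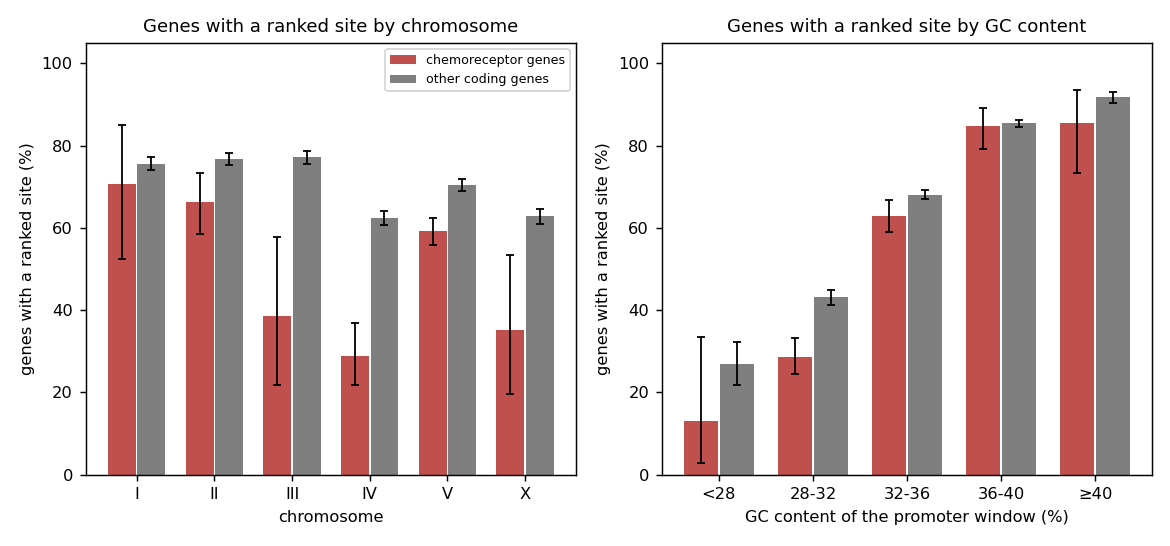
Share of chemoreceptor genes and of other coding genes with at least 1 ranked site in the promoter window, by chromosome (left) and by GC content of the window (right); bars start at 0 and error bars are exact 95% binomial intervals. Receptor genes are far below the others on chromosomes III (38.7% against 77.2%), IV (28.9% against 62.3%) and X (35.3% against 62.8%). They are also lower in windows of 28 to 32% GC (28.7% against 43.1%), and level with the others at 36 to 40% GC (84.7% against 85.4%). At 40% GC or more the shares are 85.5% and 91.8%.

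Base composition moved with both measures. The promoter windows of receptor genes had a mean GC content of 33.6% ± 3.22 (SD), beside 35.3% ± 3.69 for other coding genes. In windows of 28 to 32% GC, 28.7% of 411 receptor genes and 43.1% of other genes had a site. In windows of 32 to 36% these shares were 62.9% of 606 and 68.1%, and in windows of 36 to 40% they were 84.7% of 215 and 85.4%. At the ends they were 13.0% of 23 and 26.8% under 28% GC, and 85.5% of 55 and 91.8% at 40% or more. If each of 5 GC bins had the share of the other genes, 63.4% of receptor genes would have a site, beside the 55.8% found and the 70.8% of other genes. With bins of 1 percentage point the value was 62.3%. Within windows of 32 to 36% GC, 65.5% of receptor genes on V had a site (60.8 to 69.9%), 73.8% on II (60.9 to 84.2%) and 48.1% on IV (34.3 to 62.2%), with overlapping intervals. On III the share was 33.3% of 18 genes (13.3 to 59.0%), an interval below those on V and II. On X it was 38.9% of 18 genes (17.3 to 64.3%). The intervals on X and on I (32.3 to 83.7%, 15 genes) overlapped all the others. Other coding genes in these windows reached 69.1% on V, 73.1% on II and 59.8% on IV. On III, X and I they reached 75.6%, 59.2% and 72.3%. Whether chromosomes differ at equal GC was not tested.

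The signal of single sites followed the GC content within 100 bp of the summit, with a Spearman correlation of 0.39 across the 1114 sites and 0.34 across the 20239 others. Receptor sites with under 30% GC had a median of 13.2, beside 13.8 for the others. From 35 to 40% GC the medians were 18.8 and 20.5, and from 40 to 45% they were 22.5 and 24.4. At 45% or more both were 29.3, in 158 receptor sites and 4063 others. The ratio of medians was between 0.918 and 1.00 in the 5 bins, closer to 1 than the 0.872 over all sites. In the bin of 45% GC or more, 1.90% of receptor sites and 3.42% of the others were in the main list.

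**Figure D5:**
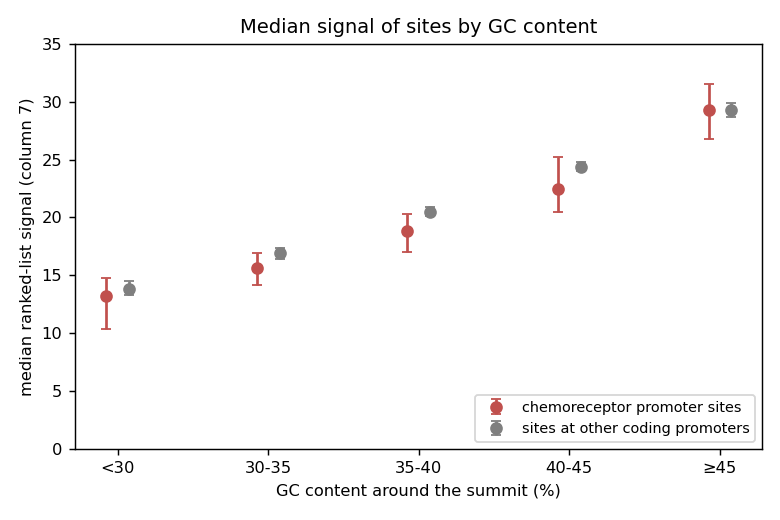
Median ranked-list signal (column 7) of chemoreceptor promoter sites and of sites at other coding promoters, in 5 bins of GC content within 100 bp of the summit; error bars are 95% order-statistic intervals of the median. Both sets rise to 29.3 from 13.2 and 13.8, and the receptor medians lie slightly lower in every bin but the highest.

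The AP-2 consensus GCCNNNGGC, a palindrome that reads alike on both strands, was within 100 bp of the summit at 5 of the 1114 sites (0.449%, exact interval 0.146 to 1.04%). It was present at 1.60% of the sites at other coding promoters and at 1.56% of all ranked peaks. In windows of the same length centred 500 bp to either side of the receptor sites it was present at 0.898% and 0.808%, beside 0.993% and 0.983% around the others. With 2 to 4 bases allowed between the arms, the shares at the summit were 4.04% and 5.39%. The difference narrowed to 1.05% and 1.53% when the window reached 2000 bp upstream and 500 bp downstream, and to 1.02% and 1.63% in replicate 2's own list, while in replicate 1's list the shares were 0.596% and 1.47%. The consensus share of other coding promoter sites went from 0.269% under 30% GC to 3.99% at 45% or more. For receptor sites it was 0 and 1.27% in these bins, and at 35 to 40% GC the shares were 0.258% and 1.03% of the others. The part of GC in the difference was not tested. The sites with the consensus are shown as 61 bases centred on it, forward strand, with the consensus in capitals, for srh-69 (chrII:12515596-12515656), srx-28 (chrV:2757803-2757863), srbc-16 (chrV:2181668-2181728), sre-49 (chrII:12319029-12319089) and srsx-37 (chrV:15260018-15260078).
srh-69: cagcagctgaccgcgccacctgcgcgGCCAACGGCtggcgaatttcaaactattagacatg
srx-28: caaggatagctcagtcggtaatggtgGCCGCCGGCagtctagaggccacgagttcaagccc
srbc-16: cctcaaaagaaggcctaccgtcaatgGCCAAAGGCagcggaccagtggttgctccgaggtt
sre-49: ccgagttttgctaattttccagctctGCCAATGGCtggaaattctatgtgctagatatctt
srsx-37: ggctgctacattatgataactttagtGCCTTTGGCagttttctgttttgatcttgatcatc

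The signals of the 5 sites ran from 5.56 to 55.0, within the range of 2.21 to 149 over all receptor sites. The srh-69 site had a signal of 55.0, with 23.5 in replicate 1 and 27.4 in replicate 2, and its consensus was centred 21 bp from the summit. The srx-28 site had 50.8, with 24.4 and 27.0, and the srbc-16 site 33.2, with 17.1 and 20.2. The srh-69 summit lay inside srh-61, in an intron, and the srbc-16 summit inside cyp-33C1, in a coding exon. The srsx-37 site (12.2) and the sre-49 site (5.56) had no summit within 100 bp in either replicate. An E-box of the form CACCTG on either strand, which zinc-finger and basic helix-loop-helix factors recognise, or of the palindromic form CACGTG, was within 100 bp of 146 receptor sites (13.1%), beside 10.3% of the others, and at 10.2% and 11.8% in the windows to either side, beside 8.19% and 8.40%.

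Within the promoter window each stretch of 200 bp held 14.8% to 19.9% of the gene-site pairs of receptors. The fullest was the one farthest upstream, from 1000 to 800 bp, with 19.9% beside 16.2% for other coding genes, and the emptiest was the one just upstream of the 5′ end, with 14.8% beside 15.5%. The median summit was 424 bp upstream of the 5′ end, beside 385 bp upstream for other coding genes, and 17.0% of gene-site pairs lay within the 200 bp downstream, beside 20.7%. Between 200 bp upstream and the 5′ end the median signal was 16.1 and the mean GC content 36.2%, beside 21.7 and 39.0% for other genes, and from 600 to 400 bp upstream the median was 22.5 with 40% GC, beside 21.3 and 39.3%. The 113 sites with a summit 901 to 1000 bp upstream had a median of 19.7, and the 90 peaks 1001 to 1100 bp upstream, just outside the window, had 21.3. At the other edge the 109 sites 101 to 200 bp downstream had 17.9 and the 104 peaks 201 to 300 bp downstream had 20.7.

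By annotation, 54.8% of the summits were intergenic, 29.4% in coding exons, 8.26% in introns and 1.80% in 5′ untranslated regions, beside 45.7%, 30.6%, 12.2% and 4.71% for the other coding promoter sites. The intergenic class also holds summits in introns of noncoding genes and pseudogenes, and the intron class is that of coding genes. The window of another, non-receptor coding gene held 121 of the 1114 summits, and 31 lay in the windows of 2 receptor genes. At 23.5% of the sites at least 1 of the 31-base words around the summit occurs more than once in the genome, beside 16.4% of the others, and at 4.13% at least 50% of the words do, beside 3.82%. A tRNA, snoRNA, snRNA or rRNA gene lay within 100 bp of 5 sites (srh-269, both sites of srz-97, srh-70 and sre-44), or 0.449%, beside 0.815% of the others. The sre-23 site, at 114 bp, fell just outside this limit.

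Most receptor genes had few sites, and none had more than 4. The 6 genes with 4 were srg-26, srxa-13, str-89, srt-56, srbc-66 and sri-70, all on chromosome V. These are not all separate regions, since each of these genes had overlapping peaks. The peaks of sri-70 overlap in a chain, and those of srt-56 and srxa-13 in pairs. At srg-26 and str-89 the peaks overlap in a chain apart from a single separate peak. At srbc-66 a single pair overlaps. With overlapping peaks merged, there were 981 receptor sites in all. The highest single value was 31.0 at srt-56. The 4 sites of srxa-13 had 9.30, 8.24, 6.54 and 2.89, and none of them had a summit within 100 bp in either replicate.

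A list of 21 receptors with a known neuron or ligand was also read out. A site was listed at 10 of them (47.6%, exact interval 25.7 to 70.2%) and not at 11, beside 55.8% of all receptor genes and 69.8% of all coding genes. None was in the main list, beside 1.49% of all coding genes. The strongest was that of str-3, a receptor gene expressed in the ASI neurons, at 39.8 with 18.6 in replicate 1 and 19.4 in replicate 2. It was followed by srh-234, expressed in ADL, at 33.8, with 20.5 and 19.1. Next was srx-44, a gene that takes part in foraging responses to an ascaroside pheromone, at 32.3, with 19.2 and 9.74. The summits of these str-3, srh-234 and srx-44 sites lay 866, 629 and 571 bp upstream. Each was in a coding exon and inside a neighbouring gene, srlf-18, srh-200 and srx-43 in turn, so the sites are not particular to the listed receptors. The sites of sra-13 (22.4), srh-142 (22.1), srg-37 (21.8), srbc-66 (18.6 at its strongest), srd-1 (12.4), str-217 (11.1) and srg-36 (9.71) were within or below the interquartile range of all receptor sites. Of these, the srg-36 site lay inside srg-37 and the strongest srbc-66 site inside str-260, each in a coding exon. The srg-36 and srg-37 genes encode receptors of a dauer pheromone, and str-217 is needed for the response to the repellent DEET.

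No ranked site of the series-level list lay in the window of odr-10 (the diacetyl receptor of the AWA neurons), str-1, str-2, srsx-3, sra-6, sra-9, sra-11, srbc-64, srx-43, srb-6 or sri-14. Among these, odr-10 had 1 peak of signal 8.86 in replicate 2 alone, 29 bp upstream of the 5′ end. For sra-9 there was 1 peak of 14.7 in replicate 1, and for srx-43 1 peak of 2.12 in replicate 2. The other 8 genes without a series-level site had no peak in either replicate's ranked list. A gene without a peak in these lists is one where no peak was listed, which does not show that the protein is absent there.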

How the data were processed

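Peaks of tagged APTF-3 were read from the narrowPeak lists that the authors deposited for assembly ce11, per the file headers and names: a ranked and a thresholded list per replicate, and ranked and thresholded lists of the series in a main and a conservative form. The deposited signal (column 7) is the authors' value per peak, on a scale that no source here defines, and was used to describe and rank peaks within a list. The −log10 of the global IDR was taken from the deposited ranked lists. Not given in the sources used here: the aligner, the peak caller and read numbers, so depth is unknown. In the series-level ranked lists 16 columns of single inputs were not used.

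Summits were assigned to the 5′ ends of Ensembl release 115 protein-coding genes with Python 3.11.15, NumPy 2.4.6 and pandas 2.3.3, and exact binomial intervals came from SciPy 1.17.1. Figures were drawn with Matplotlib 3.10.9. The assignment and the consensus search were tested on simulated data. Replicate values are those of the nearest summit within 100 bp in each replicate's own ranked list. GC content, the consensus and repeated 31-base words were read in 201 bases around each summit. The site counted as at another coding promoter had no receptor gene in reach of its summit. Medians have 95% order-statistic intervals. The sites named are those in a thresholded list or with an IDR of 0.01 or less, the 15 of highest signal, the strongest of each family, the genes with most sites and a list of known receptors; others named were chosen after their values were seen. The members, families and lists were chosen with earlier results of these data known. Alternatives covered the window, the assignment to genes, nearby small RNA genes, overlapping peaks, the list and each replicate alone.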

Additional observations from a re-analysis of the deposited data

How the results depend on the processing

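Of 87 alternative values, 62 stayed within the counting interval of the main value or within 1.5 times a count, and 25 moved. A reversed order of receptor and other coding promoter sites was looked for only in the ratio of their median signals. That ratio was not reversed in any alternative, with values from 0.835 to 0.936. Narrowing the window to 500 bp before and 100 bp after the 5′ end gave 515 sites in 462 genes. Of these sites 1 was in the main list (1.61% at other coding promoters), 23.1% were matched in both replicates and the mean GC was 37.3%. Widening the window to 2000 bp before and 500 bp after gave 2379 sites with 9 in the main list (1.05% at other coding promoters), 1.05% with the consensus and 38.7% GC. With overlapping peaks merged the median signal was 20.8 (24.1 at other coding promoters). The conservative list had 2 thresholded sites of 1092, beside 1.16% of other coding promoter sites. The count of 4 became 12 at an IDR of 0.05 and 0 when both replicates' thresholded lists were also required within 100 bp, since the replicate 1 summit at sre-23 is 103 bp away. Matching within 50 bp or 200 bp gave 15.8% and 37% matched in both, a consensus with 2 to 4 bases between arms 4.04%, and GC within 50 bp 38.8%.

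With each replicate's lists alone, the sites numbered 683 (replicate 2) and 1007 (replicate 1), and the genes 539 and 724. The thresholded sites were 1 in each, beside 0.551% and 0.385% of other coding promoter sites. The median signal of receptor sites ranged from 11.8 to 13.7, its ratio to other coding promoters from 0.881 to 0.936, and the share on chromosome V from 67.6% to 71.3%. The share with the consensus ranged from 0.596% to 1.02% and the mean GC from 37.9% to 38.7%. No paired analysis was possible because there is 1 group. The cause of these shifts was not tested. Unknown depth, the 5 sites behind the consensus share and the few receptor genes on chromosomes I, III and X limit what can be read.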

Other observations

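Several printed sequences resemble parts of tRNA genes, so the promoter boxes that lie inside tRNA genes were searched within 100 bp of every summit on both strands. The search was chosen after the sequences were seen, as GCNNAGTNGG for the A box and GGTTCGANNCC for the B box. The A box form was at 26 receptor sites (2.33%, exact interval 1.53 to 3.40%), beside 1.38% of the sites at other coding promoters and 5.35% of the main list. The B box form was at 7 (0.628%), beside 0.623% and 11.5%. None of the 29 receptor sites with either form lay within 100 bp of an annotated tRNA, snoRNA, snRNA or rRNA gene. The srh-269 site, whose window holds part of an annotated tRNA gene, had neither form, and nor had the srbc-38 site. The forms thus miss some tRNA gene sequence. The count therefore cannot show whether tRNA-like receptor sites in general lie away from annotated genes. The srx-28 site, which also had the AP-2 consensus, was among the sites with the A box form. Receptor sites with the A box form had a median signal of 27.7 and a mean GC of 42.7%, and those without had 18.8 and 38.1%. The part of GC in that difference was not tested.

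Both forms were present at 4 receptor sites (0.359%, exact interval 0.0979 to 0.917%), beside 0.158% of the sites at other coding promoters and 0.172% of all ranked peaks. They lay near sri-10 (2 sites), srw-85 and srh-233 on chromosome V, which holds 72.7% of the receptor sites. The stronger sri-10 site had a signal of 43.5, with 18.4 in replicate 1 and 22.5 in replicate 2, and the weaker 27.3, with 13.1 and 11.6. The srh-233 site had 30.5, with 17.2 and 13.4. The srw-85 site had 33.3, with 25 in replicate 1 and no summit within 100 bp in replicate 2, and its summit lay in an annotated pseudogene of 73 bp. The stronger sri-10 site is shown over chrV:18807352-18807552, forward strand of ce11 as RefSeq gives it, with the box forms of either strand in capitals.
sri-10: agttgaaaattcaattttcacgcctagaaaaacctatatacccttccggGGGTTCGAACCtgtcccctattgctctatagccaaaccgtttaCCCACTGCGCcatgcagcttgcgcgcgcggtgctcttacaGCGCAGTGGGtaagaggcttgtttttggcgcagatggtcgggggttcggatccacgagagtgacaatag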
